A study of Mus musculus with 8 samples.

Results

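The genes described here are 10 transporters that carry amino acids across the plasma membrane, taken by name from the 49315 genes listed in each library: Slc7a1, Slc7a3, Slc7a5, Slc7a6, Slc43a2, Slc1a4, Slc1a5, Slc38a1, Slc38a2 and Slc6a9. The libraries come from immortalized fibroblasts of mouse embryos (MEFs) and were sequenced for RNA in 2 genotypes, with 4 libraries labelled Opa1-/- and 4 labelled Opa1-/- + OPA1. OPA1 is the GTPase that fuses inner membranes of mitochondria. Both groups carry the Opa1 deletion, the reference group has OPA1 put back, no treatment is recorded for either, and wild-type cells were not analysed here. The labels do not say how OPA1 was put back, or whether each genotype is 1 line or several.

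Amino acids cannot cross the plasma membrane unaided, and mammalian cells use overlapping transport systems that differ in substrate and driving force. System y+ carries arginine and lysine, system L exchanges large neutral amino acids such as leucine, and system y+L couples the export of cationic amino acids to the uptake of neutral ones with sodium. Systems ASC and A are sodium-coupled and carry small neutral amino acids, and glycine has its own sodium- and chloride-coupled transporter. Several of these genes are known targets of the amino acid response, in which uncharged tRNA or other stresses act through eIF2-alpha phosphorylation and the transcription factor ATF4.

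Of the 10 transporters, 6 rose in the knockout-labelled libraries, 1 fell, 2 did not pass the test and 1 was too low to be tested. Slc7a3 rose the most, 3.25-fold, followed by Slc1a4 at 2.09-fold and Slc6a9 at 1.67-fold, and Slc7a6 was the one that fell. The 2 most abundant, Slc38a2 and Slc7a5, were the 2 that did not pass. Over all 14272 genes tested, 33.0% passed, 16.2% as higher and 16.9% as lower, so calls in either direction were common among all genes. The median difference of the 9 tested transporters was 0.50, against -0.0029 over all genes tested. The transporters, and the gene pairs compared below, were chosen with earlier results of these data known. Neither the comparison with all genes nor the pair tests are thus independent evidence. In 7 transporters, the untested Slc43a2 among them, every knockout-labelled library lay above every reconstituted one, in 1 every one lay below, and in 2 the groups overlapped. Over all genes tested these shares were 17.2% above, 19.0% below and 36.2% for both directions together.

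Sequence at the start of the genes was read for one motif that bears on the amino acid response, TGATGNAA, the core letters of the element bound by dimers of ATF4 and C/EBP factors. It was searched on both strands in windows from 250 bases before to 50 after annotated starts in RefSeq GRCm38.p6, where 6 of the 10 transporters had a window (Slc7a1, Slc7a6, Slc43a2, Slc1a4, Slc38a2 and Slc6a9). It occurred in 3.97% of all 32851 such windows and in 4.51% of the 27025 genes that have one. Among the 6 transporters, Slc1a4 held 1 match, whose first letter lies 4 bases before the start, and the other 5 held none. Slc7a1 and Slc6a9, which also rose, are among those without a match. Outside the set, Slc7a11 held 2 matches, at 66 and 47 bases before its start, and Slc3a2 held none, though both rose. Shown are a transporter that rose and has the motif, the related Slc7a11 with 2 copies, and Slc38a2, which did not pass, each from 250 bases before to 30 after the start, 5′ to 3′ on the gene's own strand, with motif letters in capitals. The windows are chr11:20332684-20332963 (Slc1a4), chr3:50443584-50443863 (Slc7a11) and chr15:96699699-96699978 (Slc38a2), all minus strand.
Slc1a4: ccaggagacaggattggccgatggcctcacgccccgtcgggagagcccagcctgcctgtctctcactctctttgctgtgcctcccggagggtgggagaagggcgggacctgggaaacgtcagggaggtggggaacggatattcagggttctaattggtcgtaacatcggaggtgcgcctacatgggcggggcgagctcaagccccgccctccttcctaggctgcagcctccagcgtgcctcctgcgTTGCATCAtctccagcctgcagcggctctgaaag
Slc7a11: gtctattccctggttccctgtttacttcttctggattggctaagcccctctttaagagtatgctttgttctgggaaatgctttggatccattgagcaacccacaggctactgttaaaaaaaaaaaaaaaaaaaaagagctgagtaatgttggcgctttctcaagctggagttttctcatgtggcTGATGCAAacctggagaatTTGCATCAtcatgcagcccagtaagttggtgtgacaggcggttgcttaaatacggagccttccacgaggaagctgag
Slc38a2: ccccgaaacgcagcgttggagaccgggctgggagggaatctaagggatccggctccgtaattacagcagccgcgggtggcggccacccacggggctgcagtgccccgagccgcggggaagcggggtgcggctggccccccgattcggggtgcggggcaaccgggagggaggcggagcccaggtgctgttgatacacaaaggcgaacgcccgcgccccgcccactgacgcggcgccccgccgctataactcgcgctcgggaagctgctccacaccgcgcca
A match is a description of letters and not a binding site, and elements outside these windows were not searched.

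Values are scaled TPM (a share of all transcripts, corrected for transcript length and rescaled between libraries), given for libraries 1 to 4 of each group in that order and as mean ± SD with n = 4. Differences are knockout-labelled minus reconstituted, in log2 of scaled TPM plus 1, which understates changes of low genes, and adjusted p-values are from limma with Benjamini-Hochberg adjustment over all genes tested, called below 0.05. The labels do not say that libraries came from separate cultures, so the p-values here speak of library-to-library spread alone, and that spread may be technical. Libraries held between 52.7 and 57.5 M reads (M, 1000000), as recovered from the steps in low TPM values. Opa1 was at 12.5 to 14.8 TPM in the knockout-labelled and 14.6 to 15.6 TPM in the reconstituted libraries (-0.09, SE 0.06, adjusted p = 0.299), so its total does not check the labels. Of 11 fibroblast markers, 9 reached 1 TPM and Pdgfra and Lum were below it in every library. Their summed level was 2710 to 3008 TPM in the knockout-labelled and 3166 to 3230 TPM in the reconstituted libraries, with 1 (Col3a1) called higher and 5 lower. Of 17 markers of epithelial, endothelial, blood, neural and muscle cells, 14 stayed below 1 TPM in every library, and the summed level was 28.9 to 36.1 against 32.3 to 35.5 TPM. Of the other 3, chosen for mention after their values were seen, Cdh1 was called higher, Tubb3 lower (12.3 ± 1.12 against 19.3 ± 1.45 TPM) and Cd68 neither. The part of these marker differences in the results below was not tested, and in bulk RNA fewer cells of a type and less RNA per cell cannot be told apart.

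**Figure D1:**
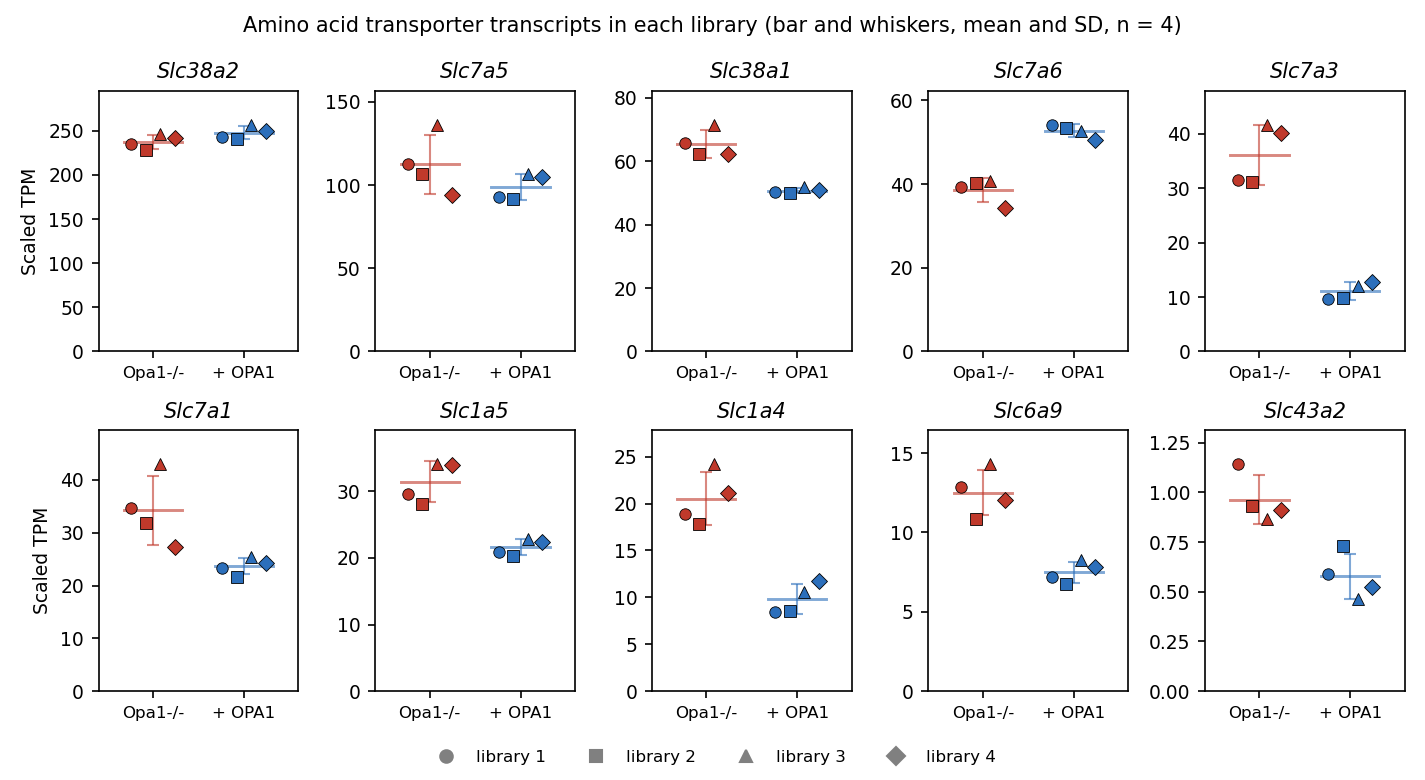
Scaled TPM of each of the 10 transporters (vertical axis, linear from 0, a separate scale per gene) in the 4 Opa1-/- and the 4 Opa1-/- + OPA1 libraries, with marker shape giving the library number, bars the mean and whiskers the SD. The groups are apart for 8 genes, and overlap for Slc38a2 and Slc7a5.

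System y+ is represented by Slc7a1 and Slc7a3, which encode the cationic amino acid transporters CAT1 and CAT3. Slc7a3 (ENSMUSG00000031297; GRCm38 chromosome X, 101079210 to 101086020, minus strand) was at 31.5, 31.2, 41.7 and 40.1 TPM in the knockout-labelled libraries. In the reconstituted libraries it was at 9.70, 9.80, 12.0 and 12.9 TPM. The lowest knockout-labelled library was thus well above the highest reconstituted one, and libraries 3 and 4 were above 1 and 2 in both groups. The means were 36.1 ± 5.59 and 11.1 ± 1.59 TPM (1.61, SE 0.12, 95% confidence interval 1.34 to 1.89, adjusted p = 4.38e-05). It rested on 2130 to 2947 reads per knockout-labelled library and 685 to 899 per reconstituted library. In size this difference ranked 23rd of the 14272 genes tested. The 301 X-linked genes with a mean log2 level above 3 had a median of -0.36, so Slc7a3 moved against its chromosome, and with chromosome medians removed its difference was 1.97.

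Slc7a1 (ENSMUSG00000041313; chromosome 5, 148327410 to 148399904, minus strand), the widely expressed arginine and lysine carrier, was at 34.6, 31.9, 43.0 and 27.4 TPM in the knockout-labelled libraries. The reconstituted libraries held 23.4, 21.7, 25.3 and 24.3 TPM. The groups did not overlap, but knockout-labelled library 4 lay close to the reconstituted range and library 3 far above it. The means were 34.2 ± 6.56 and 23.7 ± 1.55 TPM, a 1.44-fold difference (0.50, SE 0.12, 95% confidence interval 0.23 to 0.76, adjusted p = 0.0114). The interval of Slc7a1 ended below the start of that of Slc7a3.

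The balance between these CAT genes differed between the groups. In the reconstituted libraries Slc7a3 stood at 0.415 to 0.529 of the Slc7a1 level, and in the knockout-labelled libraries at 0.908 to 1.47. The log2 ratio of Slc7a3 to Slc7a1 was -0.14, -0.03, -0.04 and 0.54 in the knockout-labelled libraries and -1.19, -1.07, -1.01 and -0.87 in the reconstituted ones. The difference of 1.12 gave p = 0.0286 in an exact two-sided permutation test, the smallest p that 4 libraries against 4 allow, and 0.04 adjusted over the 7 gene pairs compared. Slc7a3 was thus the lower of the pair in every reconstituted library and near or above Slc7a1 in every knockout-labelled one.

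System L is represented by Slc7a5 and Slc43a2. Slc7a5 (ENSMUSG00000040010; chromosome 8, 121881150 to 121907694, minus strand) encodes LAT1, the exchanger through which many growing cells take up leucine, and works only as a dimer with the heavy chain 4F2hc, the product of Slc3a2. It was at 112.6, 106.6, 136.4 and 94.3 TPM in the knockout-labelled and 93.1, 91.7, 106.7 and 105.0 TPM in the reconstituted libraries. Knockout-labelled library 4 fell inside the reconstituted range and the groups overlapped. The means were 112.5 ± 17.7 and 99.2 ± 7.84 TPM (0.17, SE 0.10, 95% confidence interval -0.07 to 0.41, adjusted p = 0.246), so a rise of up to that bound is not excluded by the interval. Genes of chromosome 8 had a median of -0.18, and with chromosome medians removed Slc7a5 was at 0.35 with adjusted p = 0.0351, a call that the unadjusted fit does not give.

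Slc43a2 (ENSMUSG00000038178; chromosome 11, 75531694 to 75577575, plus strand) encodes LAT4, a facilitated carrier of the same large neutral amino acids that needs no heavy chain. It was the lowest of the set, at 1.14, 0.933, 0.865 and 0.910 TPM in the knockout-labelled and 0.588, 0.730, 0.465 and 0.525 TPM in the reconstituted libraries. The groups did not overlap, but the gene was below the level needed for testing, 1 TPM in at least 4 libraries. Its values rested on 160 to 205 reads against 88 to 135 reads per library. With no filter on low values its difference was 0.32 with adjusted p = 0.0403. Of its exon bases, 922 of 10042 are shared with Gm45606 on the opposite strand, and no source used here says whether reads were counted by strand, so those reads cannot be assigned to either gene. The Slc7a5 level was 98.7 to 157.6 times that of Slc43a2 in the knockout-labelled and 125.6 to 229.4 times in the reconstituted libraries, with overlapping ranges. The log2 ratio of values plus 1 differed by -0.15 (exact permutation p = 0.343, adjusted p = 0.4). Adding 1 TPM shrinks this difference because Slc43a2 is itself near 1 TPM, and with 0.1 TPM added it was -0.49 (exact permutation test, adjusted p = 0.1).

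Slc7a6 (ENSMUSG00000031904; chromosome 8, 106168857 to 106198706, plus strand) encodes the y+LAT2 light chain of system y+L, which exports arginine in exchange for glutamine and sodium and also pairs with 4F2hc. It was at 39.4, 40.2, 40.7 and 34.3 TPM in the knockout-labelled libraries and 54.2, 53.4, 52.7 and 50.6 TPM in the reconstituted ones. All 4 knockout-labelled libraries were below all 4 reconstituted ones. The means were 38.6 ± 2.92 and 52.7 ± 1.55 TPM (-0.44, SE 0.06, adjusted p = 0.000552). With chromosome medians removed the difference was -0.26 with adjusted p = 0.00987, still a fall but over 1.5 times smaller.

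The heavy chain Slc3a2, named because 3 of the pairs contain it, was at 161.1 ± 18.8 against 130.6 ± 7.43 TPM (0.29, SE 0.08, adjusted p = 0.0213). This call was lost without knockout-labelled library 3 (adjusted p = 0.0516), without reconstituted library 1 (0.0575) or 2 (0.0606), without both libraries numbered 3 (0.0882), on TPM as deposited (0.0552) and with no filter (0.0542). Relative to Slc3a2, Slc7a6 was at 0.364 to 0.434 in the reconstituted and 0.190 to 0.276 in the knockout-labelled libraries, a log2 difference of -0.74 (exact permutation p = 0.0286, adjusted p = 0.04). The ratio of Slc7a5 to Slc3a2 was 0.737 to 0.796 in the reconstituted and 0.522 to 0.786 in the knockout-labelled libraries. Its difference of -0.12 did not pass (exact permutation p = 0.629, adjusted p = 0.629). Slc7a11, the light chain of the cystine and glutamate exchanger xc- that uses the same heavy chain, is no member of the set. Its ratio to Slc3a2 differed by 0.83 in the opposite direction to that of Slc7a6 (exact permutation p = 0.0286, adjusted p = 0.04), with Slc7a11 itself at 7.17 ± 1.18 against 2.73 ± 0.373 TPM (1.13, SE 0.12, adjusted p = 0.000173).

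System ASC is represented by Slc1a4 and Slc1a5, sodium-coupled exchangers of alanine, serine and cysteine, of which the Slc1a5 product ASCT2 also carries glutamine. Slc1a4 (ENSMUSG00000020142; chromosome 11, 20302180 to 20332713, minus strand) was at 18.8, 17.8, 24.2 and 21.1 TPM in the knockout-labelled and 8.40, 8.51, 10.5 and 11.8 TPM in the reconstituted libraries. The groups did not overlap, and libraries 3 and 4 were above 1 and 2 in both. The means were 20.5 ± 2.82 and 9.80 ± 1.63 TPM (1.00, SE 0.12, adjusted p = 0.000413).

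Slc1a5 (ENSMUSG00000001918; chromosome 7, 16781340 to 16798274, plus strand) was at 29.6, 28.2, 34.1 and 34.0 TPM in the knockout-labelled and 21.0, 20.3, 22.8 and 22.4 TPM in the reconstituted libraries. The groups did not overlap, and the means of 31.4 ± 3.03 and 21.6 ± 1.19 TPM were 1.45-fold apart (0.52, SE 0.07, adjusted p = 0.000799). Slc1a4 was at 0.401 to 0.524 of the Slc1a5 level in the reconstituted and 0.622 to 0.710 in the knockout-labelled libraries. That log2 ratio differed by 0.48 (exact permutation p = 0.0286, adjusted p = 0.04), so the less abundant ASC gene rose by the larger factor.

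System A is represented by Slc38a1 and Slc38a2, which lie next to each other on chromosome 15 on the minus strand (96571418 to 96642913 and 96687392 to 96699730) and encode SNAT1 and SNAT2, sodium-coupled importers of alanine, glutamine and other small neutral amino acids. Slc38a2 (ENSMUSG00000022462) was the most abundant of the set, at 234.8, 227.9, 246.2 and 241.8 TPM in the knockout-labelled and 243.4, 240.7, 257.2 and 249.9 TPM in the reconstituted libraries. The ranges overlapped, and the means of 237.7 ± 8.06 and 247.8 ± 7.36 TPM gave a difference of -0.06 (SE 0.04, 95% confidence interval -0.15 to 0.03, adjusted p = 0.269). In this fit the interval holds no rise above 0.03, but the bound depends on the setting. With trends of exon length and GC content removed the difference was -0.002 (limma, adjusted p = 0.978). As background, Slc38a2 is a gene that amino acid starvation is known to induce.

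Slc38a1 (ENSMUSG00000023169) was at 65.7, 62.2, 71.6 and 62.4 TPM in the knockout-labelled and 50.1, 49.9, 51.8 and 50.8 TPM in the reconstituted libraries. The reconstituted libraries lay close together and below all the knockout-labelled ones, with means of 65.5 ± 4.36 and 50.7 ± 0.847 TPM (0.36, SE 0.05, adjusted p = 0.000717). Of its 50-base words 4.23% occur in other genes, less than the 8.75% of Slc43a2 and the 26.3% of Slc6a9. Slc38a2 was at 4.82 to 4.97 times Slc38a1 in the reconstituted and 3.44 to 3.87 times in the knockout-labelled libraries. The log2 ratio differed by -0.42 (exact permutation p = 0.0286, adjusted p = 0.04), so these neighbouring genes of 1 system did not move in step.

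Slc6a9 (ENSMUSG00000028542; chromosome 4, 117834506 to 117875198, plus strand) encodes the glycine transporter GlyT1. It was at 12.9, 10.9, 14.3 and 12.0 TPM in the knockout-labelled and 7.19, 6.74, 8.23 and 7.84 TPM in the reconstituted libraries. The groups did not overlap, with means of 12.5 ± 1.44 and 7.50 ± 0.665 TPM (0.67, SE 0.09, adjusted p = 0.000637). Of its 5141 exon bases, 1429 are shared with Ccdc24, 511 with Gm17114 and 46 with B4galt2, all on the opposite strand. Ccdc24 was at 0.613 ± 0.0496 against 0.347 ± 0.0599 TPM, so the overlapped gene was low and higher in the same libraries. The part of the overlap in the Slc6a9 value was not tested.

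**Figure D2:**
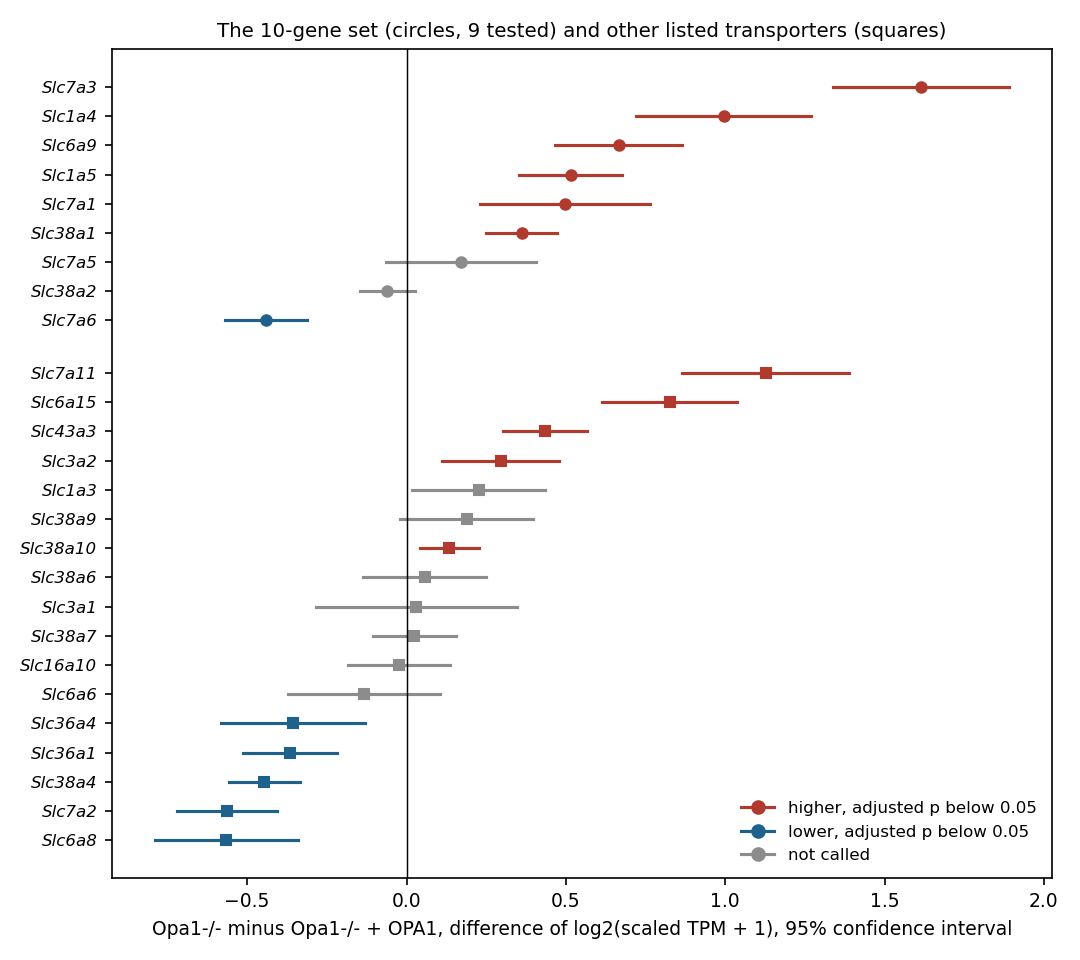
Knockout-labelled minus reconstituted difference (horizontal axis, log2 of scaled TPM plus 1) with its 95% confidence interval from limma. Circles are the 9 tested transporters of the set, and squares are other listed genes of amino acid transporter families. Slc7a3 at 1.61 lies farthest to the right of the set and Slc7a6 at -0.44 farthest to the left.

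**Figure D3:**
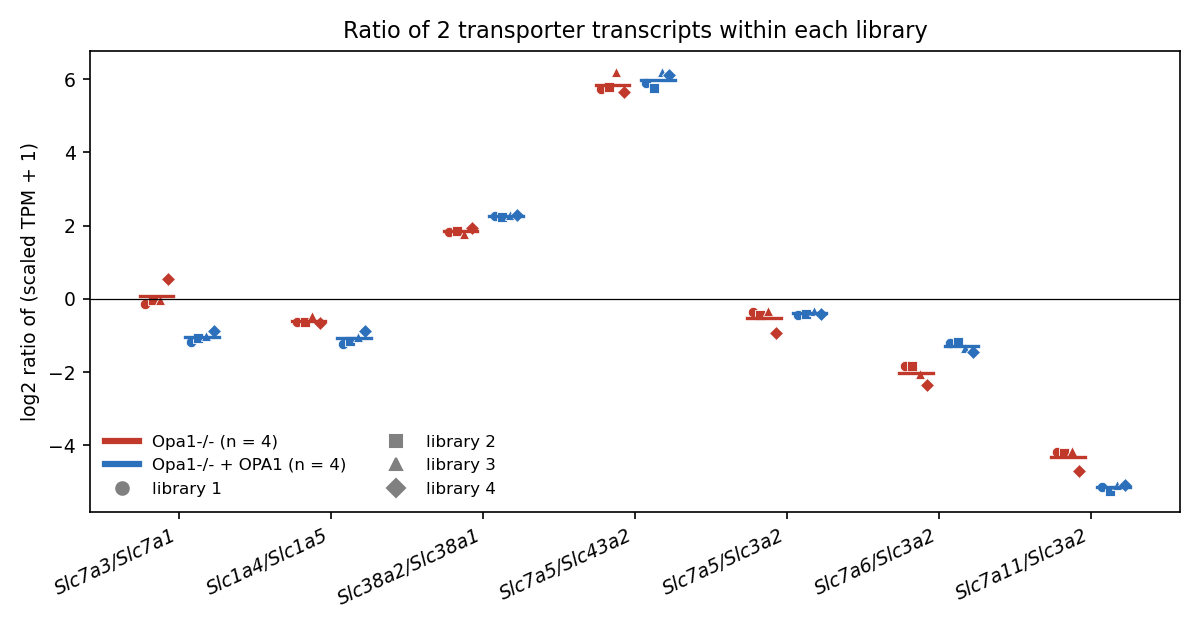
Log2 ratio of scaled TPM plus 1 within each library (vertical axis) for the 7 gene pairs, in the 4 Opa1-/- and the 4 Opa1-/- + OPA1 libraries. The groups are apart for 5 pairs, and overlap for Slc7a5 against Slc43a2 and against Slc3a2.

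TPM is corrected for length, so the levels of the 10 genes can be set side by side as far as the lengths used hold. Those lengths are not given, and annotated exon lengths ran from 3708 bases (Slc7a5) to 17236 bases (Slc38a1). The order below and the levels of 1 gene relative to another above depend on them. In the reconstituted libraries the order of the means from high to low was Slc38a2, Slc7a5, Slc7a6, Slc38a1, Slc7a1, Slc1a5, Slc7a3, Slc1a4, Slc6a9 and Slc43a2. Neighbours whose ranges overlapped there were Slc7a6 and Slc38a1, Slc7a1 and Slc1a5, and Slc7a3 and Slc1a4. In the knockout-labelled libraries Slc38a1 stood above Slc7a6 in every library, and Slc7a6, Slc7a3, Slc7a1 and Slc1a5 followed with means of 38.6, 36.1, 34.2 and 31.4 TPM. The ranges of neighbours within these 4 overlapped, and that of Slc1a5 lay above that of Slc1a4, the next in the order. Slc7a3, below Slc1a5 in every reconstituted library, was thus above it in every knockout-labelled one.

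The summed level of the 10 transporters was 557.7 to 652.9 TPM in the knockout-labelled libraries and 503.5 to 547.9 TPM in the reconstituted ones. Slc38a2 made up 46.6% to 47.8% of this sum in the reconstituted and 37.7% to 42.5% in the knockout-labelled libraries. The share of Slc7a3 was 1.90% to 2.40% in the reconstituted and 5.42% to 7.06% in the knockout-labelled libraries, and that of Slc7a6 was 9.44% to 10.6% against 6.04% to 7.21%. Slc7a5 held 18.2% to 19.6% in the reconstituted libraries and 16.6% to 20.9% in the knockout-labelled ones. These shares restate the levels above and were not tested. In 4 transporters, Slc7a3, Slc1a4, Slc1a5 and Slc38a2, libraries 3 and 4 were above 1 and 2 in both groups. The share of all tested genes with this order was not counted, so it cannot be called a trait of the set. Outside the set Atf4, Atf5 and Trib3 also had it, and Vldlr did not. Mir6236, Gm42418, Gm24270 and Gm23935, which are small or ribosomal RNA genes, together took 10.96% of the deposited TPM in knockout-labelled library 3 against 14.9% to 15.5% in the other knockout-labelled libraries. In reconstituted library 3 they took 5.29% against 13.6% to 14.2%. Library 4 was not apart from 1 and 2 in this share. Transcripts of mitochondrial DNA took 2.67% to 3.35% in the knockout-labelled and 5.33% to 5.77% in the reconstituted libraries. Without both libraries numbered 3 the set still had 6 transporters called higher and 1 lower. The part of these shares in the levels of single libraries was not tested.

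**Figure D4:**
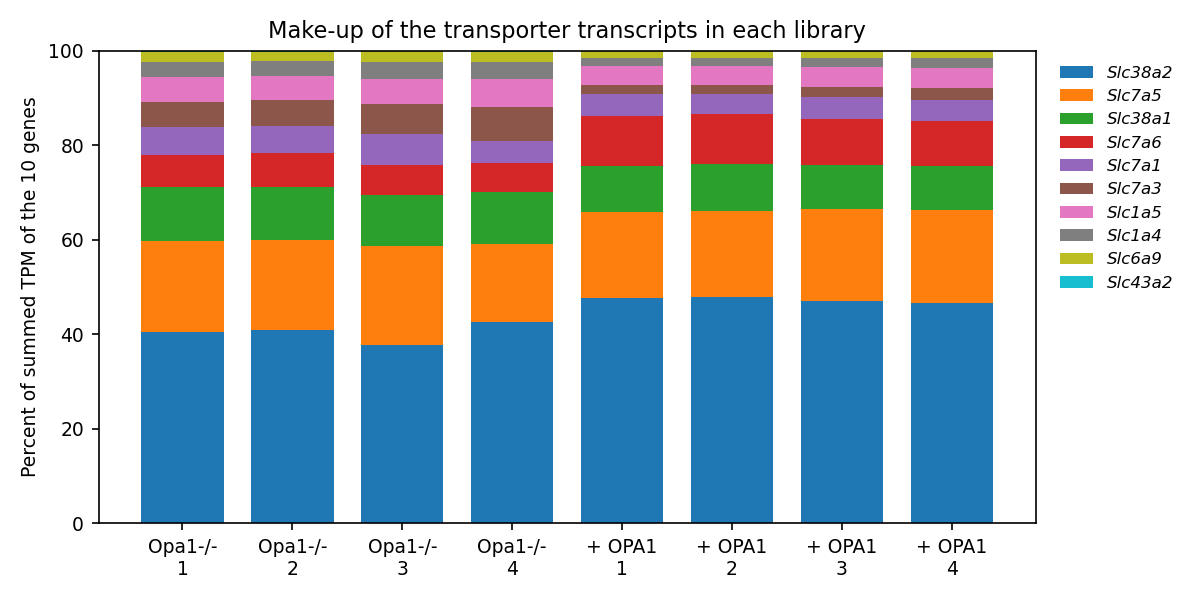
Share of each transporter in the summed scaled TPM of the 10 (percent, vertical axis) in each of the 8 libraries. Slc38a2 takes 37.7% to 42.5% in the Opa1-/- and 46.6% to 47.8% in the Opa1-/- + OPA1 libraries, and Slc7a3 5.42% to 7.06% against 1.90% to 2.40%.

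Other genes listed from amino acid transporter families, not all of which carry amino acids, went both ways. Of 50 listed, 17 were high enough to test, and 5 rose, 5 fell and 7 did not pass, with a median of 0.03. Beside Slc7a11 and the heavy chain Slc3a2, those that rose were Slc6a15, Slc43a3 and Slc38a10. Slc6a15, a neutral amino acid transporter, was at 18.5 ± 2.23 against 9.96 ± 0.951 TPM (0.83). Slc43a3, of the family of Slc43a2 but not taken here to share its substrates, was at 10.1 ± 0.668 against 7.24 ± 0.227 TPM (0.43). Slc38a10 differed by 0.13, a call lost in 11 of 18 alternative settings, 7 of them with 1 library left out. Slc38a4, the third system A gene, fell from 169.9 ± 4.30 to 124.6 ± 8.03 TPM (-0.45, SE 0.05, adjusted p = 0.000250), so of the system A genes Slc38a1 rose, Slc38a4 fell and Slc38a2 did not pass. Slc7a2, which encodes the cationic transporter CAT2, fell from 8.69 ± 0.335 to 5.57 ± 0.531 TPM (-0.56, SE 0.07, adjusted p = 0.000429), against the rise of Slc7a1 and Slc7a3. Slc6a8, an X-linked creatine transporter, fell by 0.57, and with chromosome medians removed its difference was -0.21 with adjusted p = 0.161. Slc36a1, of the proton-coupled family, fell by 0.37. Slc36a4 of the same family fell by 0.36, a call lost without reconstituted library 1 (adjusted p = 0.0615) or 2 (0.0674), without both libraries numbered 3 (0.0665) and with no filter (0.0601). A summed level was taken over the set and the other listed genes, leaving out the heavy chains Slc3a1 and Slc3a2. The 10 transporters of the set made up 58.8% to 62.6% of it in the knockout-labelled and 53.4% to 55.6% in the reconstituted libraries. This share also moves with genes outside the set, such as Slc38a4, which fell. It was not tested, and as the set was chosen with earlier results known it is no independent evidence.

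Of 18 genes of the amino acid response, 13 rose, 1 fell (Eif2ak3, the eIF2-alpha kinase PERK) and 4 did not pass, with a median of 0.51. This list was already known to rise in these data and is no independent evidence for the transporters. Trib3, Cth, Chac1 and Vldlr had the largest differences, 2.02, 1.78, 1.56 and 1.45. Atf4 itself did not pass (0.26, adjusted p = 0.0746). Among 32 tested genes of amino acid sensing to the kinase complex mTORC1, a list that also holds its own subunits Mtor, Rptor and Mlst8 (none of them called), 7 rose, 6 fell and 19 did not pass, with a median of -0.04. The largest rise there was that of Sesn2, a leucine sensor and stress-induced gene (29.4 ± 4.48 against 17.4 ± 1.47 TPM, 0.72), and the largest fall that of Rragc, a Rag GTPase (-0.26, and -0.11 with adjusted p = 0.108 once chromosome medians were removed). Of 6 tested genes of a list of lysosomal carriers of amino acids and other solutes, none rose. Slc29a3, of a nucleoside transporter family, fell (-0.34). That call was lost without knockout-labelled library 2 (adjusted p = 0.0540), without reconstituted library 1 (0.0639), 2 (0.0523) or 4 (0.0587), on TPM as deposited (0.0573) and with no filter (0.0598).

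**Figure D5:**
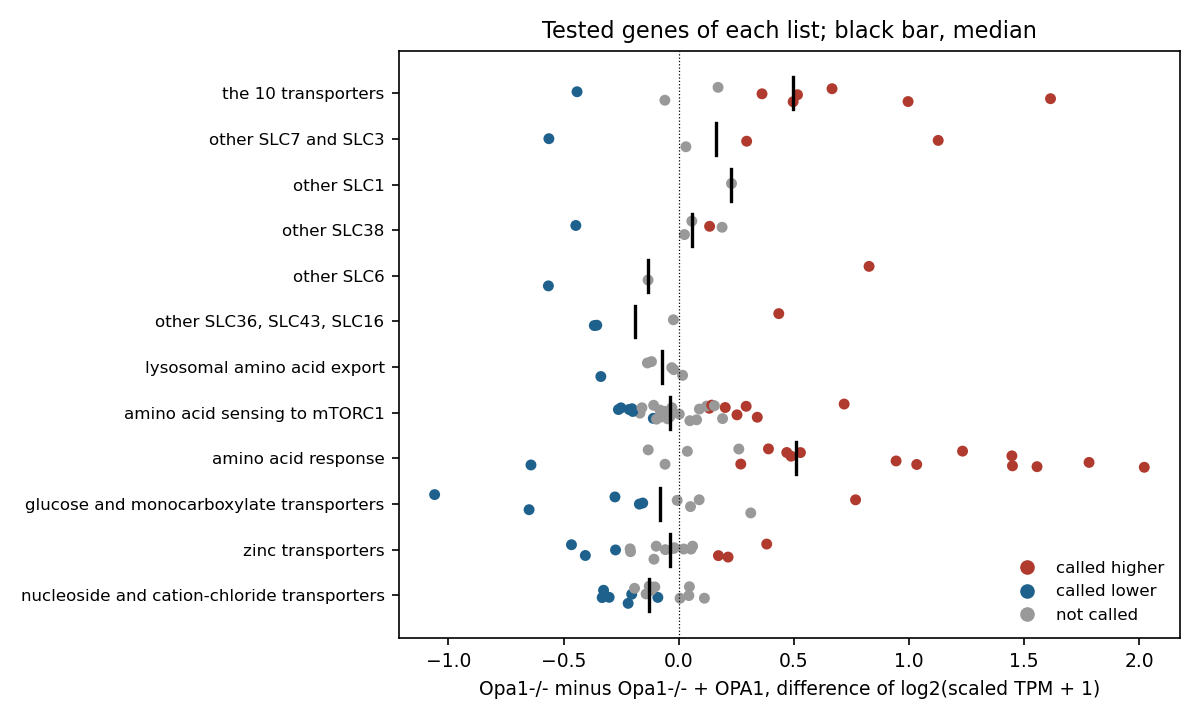
Differences of single genes (log2 of scaled TPM plus 1, knockout-labelled minus reconstituted) in the 10 transporters and the other gene lists, with the median of each list marked. The medians are 0.50 for the 9 tested transporters, 0.51 for the amino acid response and -0.04 for amino acid sensing.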

How the data were processed

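RNA was extracted with an RNeasy Plus kit and libraries were prepared with the NEBNext Ultra II RNA kit, per the labels' protocols. The submitters' processing notes name STAR 2.5.2b, Subread 1.5.2, featureCounts and bcl2fastq 2.17, together with 2 builds, GRCh38 and mm10, without saying what each was for. Strandedness and the gene lengths behind TPM are not given in the sources used here. The authors deposited TPM values for 49315 genes per library, per the file headers, of which 174 have no name.

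A gene was tested if 4 or more libraries had it at 1 TPM or above. Over such genes, libraries were scaled by an unweighted trimmed mean (of the log ratios 30%, and of the levels 5%, were trimmed on either side). The test was limma 3.58.1 in R 4.3.3, with a mean-variance trend on log2(scaled TPM + 1), two-sided, with Benjamini-Hochberg adjustment. The procedure was tested on simulated data, where it recovered 26.5% of 1.25-fold, 77.6% of 1.5-fold, 91.3% of 2-fold and 91.8% of 4-fold changes. Of its 145 calls there 7 were false. Far fewer genes changed there than were called in the data, so it does not show the performance with as many changes. The reported scaling and filter were the third combination run. They replaced 2 earlier ones, after the number of called genes had been seen, to follow an earlier processing of these data that tested 14272 genes. Both earlier combinations are among the alternatives. Ratios of gene pairs were compared by an exact permutation test with 70 arrangements. The remaining work was done in Python 3.11.15 with pandas 2.3.3, numpy 2.4.6 and matplotlib 3.10.9.

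The transporters, gene lists and pairs were chosen with earlier results of these data known. Named genes are the 10 transporters, up to 4 called genes with the largest difference from each other list, the most abundant marker genes, both genes of each pair, and Opa1. One listed name that matched no gene of its own was dropped. Positions are from GENCODE M21 (GRCm38), which held 48970 of the identifiers. Reads were recovered from low TPM values, of which 92.2% to 93.2% were whole within 0.05 of a read, and serve as depth only. The precision is limited by the 4 libraries per group. Deviations of same-numbered libraries from their group means correlated at 0.246, 0.225, 0.317 and 0.119 over 9416 genes. For different-numbered libraries the correlations were -0.32 to 0.114, so the lowest same-numbered value was barely above them. All same-numbered values were above 0.1, but so was the highest different-numbered value of 0.114, so that cut does not set them apart. The numbers were still taken to pair the libraries, from the data and not from the labels. The reported calls and ratio tests do not use this pairing, while the replicate block and the sign-flip test do. Alternatives were other scalings, another pseudocount, no filter, the replicate number as a block, libraries left out, and removal of chromosome medians or of trends with exon length and GC content.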

Additional observations from a re-analysis of the deposited data

Results flagged for a closer look

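Of 34 sets of 4 values examined, 2 had a library whose gap to its nearest neighbour passed Dixon's 95% critical value as a share of the group's range, and about 5% of sets are flagged by chance. Both were ratios in knockout-labelled library 4. Its log2 ratio of Slc7a3 to Slc7a1 was 0.536, the highest of its group (gap 0.849 of the range), and without it the difference between groups was 0.97 against 1.12. Its log2 ratio of Slc7a11 to Slc3a2 was -4.712, the lowest of its group (gap 0.924 of the range), and without it the difference was 0.96 against 0.83.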

How the results depend on the processing

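In all 18 alternatives the set had 6 or 7 transporters called higher and 1 lower, and no result reversed. The seventh was Slc7a5 with chromosome medians removed and Slc43a2 with no filter. Over all genes, 2305 were called higher and 2408 lower. On TPM as deposited 1752 were higher and 1529 lower, and with chromosome medians removed 2190 and 1572. The cause of these lower counts was not tested. The scaling and filter run first, over all genes above 0 with the filter on scaled TPM, gave 2083 higher and 2559 lower, and the second, with only the filter on scaled TPM, gave 2310 and 2411. These 2 were added after seeing the data, and under both the set had 6 higher and 1 lower. Leaving out 1 library at a time gave 1732 to 2644 higher and 1802 to 2774 lower. With the replicate block 2335 genes were higher and 2412 lower, and the block changed no call of the set. In a sign-flip test over the 4 same-numbered pairs the 5 called ratios gave an exact p of 0.125, the smallest it can give, so the paired form cannot reach the threshold. Depth was lowest for Slc43a2, with 88 to 205 reads per library.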

Other observations

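Genes listed for comparison, mostly transporters of other solutes, were more often lower than higher among those called. The lists also hold Slc9a3r1, a scaffold protein (called lower), and Bsg, a partner protein of monocarboxylate transporters (not called). Of 51 listed, 41 were tested, and 4 rose, 14 fell and 23 did not pass, with a median of -0.10. Among 10 tested genes of the glucose and monocarboxylate list, 5 fell and Slc16a3, the lactate exporter MCT4, rose from 3.18 ± 0.280 to 6.10 ± 0.245 TPM (0.77). Slc2a6 fell from 6.57 ± 0.383 to 2.63 ± 0.189 TPM (-1.06) and Slc2a10 from 3.92 ± 0.326 to 2.13 ± 0.126 TPM (-0.65). Of 16 tested zinc transporters 3 rose and 3 fell, among them Slc39a14 (-0.47) and Slc39a13 (-0.41). Of 15 tested genes of a mixed list of nucleoside, cation and anion transport none rose and 6 fell, among them Slc9a3r1 and the phosphate carrier Slc20a1, with Slc29a2, an equilibrative nucleoside transporter, at -0.33. Whether these lists differ from the amino acid transporters was not tested.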
